A study of Mus musculus with 6 samples.

Results

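The genes described here are Odc1 and 9 genes around it that make, regulate and break down polyamines: Oaz1, Oaz2, Azin1, Amd1, Srm, Sms, Sat1, Smox and Paox. They are 10 of the 55401 genes in the count tables. They were chosen by symbol, with results of this same comparison known, and Odc1 was chosen for its difference between the groups. Their values in this comparison are therefore given as a description, with no p-value. How many of them were past the threshold of the fit over all genes is stated beside the share of all genes, and nothing is read from it. All 10 symbols matched 1 identifier each and all 10 passed the filter on low counts, as did 14269 genes in all.

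RNA was sequenced from RAW264.7, a mouse macrophage line from an ascites tumour induced by Abelson murine leukemia virus, with genotype WT in all 6 samples. Sample titles give 3 libraries of a control siRNA and 3 of a siRNA for Nop16, which encodes a nucleolar protein of ribosome assembly. The question set by the series is what NOP16 does in macrophages. The treatment text, the same for every sample, names only the Nop16 siRNA, at 20 nM for 3 days with Lipofectamine RNAi Max, and the treatment tag reads "no" throughout. The labels leave out how the control cells were transfected, so an effect of transfection and one of Nop16 siRNA cannot be told apart if the controls were handled differently. Nothing in the labels says that replicates were separate cultures, so errors and p-values reflect differences among 6 samples whose spread could be technical.

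The polyamines putrescine, spermidine and spermine are small, positively charged molecules that bind RNA, DNA and nucleotides and are needed for growth and translation. Ornithine decarboxylase (Odc1) makes putrescine from ornithine, S-adenosylmethionine decarboxylase (Amd1) makes the aminopropyl donor, and Srm and Sms use that donor to make spermidine and spermine. Polyamines raise the output of antizymes (Oaz1, Oaz2), which bind ornithine decarboxylase, send it to the proteasome and limit polyamine uptake, and the antizyme inhibitor Azin1 binds antizyme in its place. Sat1, Smox and Paox acetylate or oxidise spermidine and spermine back towards putrescine. In macrophages the ornithine that feeds this pathway comes from arginine, which is also the substrate of nitric oxide synthase.

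Much of the control of these genes is set by sequence. The sequences below are shown because they are the known points of control of the members described below: the translational frameshift of the antizymes, the upstream reading frame of Amd1 and the region in front of Odc1. The antizyme messages hold a stop codon that ribosomes pass by slipping forward, and polyamines favour the slip. In GRCm38 (GENCODE mouse release 21) the Oaz1 coding sequence skips the base at chr10:80828295 and that of Oaz2 the base at chr9:65686272, both on the plus strand. The stretches around these bases, chr10:80828283-80828309 and chr9:65686260-65686286, are shown with the frameshift site TCC followed by the stop TGA in capitals.
Oaz1: cggtggtgcTCCTGAtgtccctcaccc
Oaz2: ctgtggtgcTCCTGAtgcccctcaccc
Without the skip, the Oaz1 frame ran for 68 codons before its stop and with it for 227. The matching values for Oaz2 were 32 and 189 codons. Poly(A) RNA counts measure the message and do not show how often ribosomes slip.

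The Amd1 message carries a short reading frame ahead of its coding sequence, at which ribosomes stall when polyamines are plentiful. It lay at chr10:40302155-40302175 on the minus strand of GRCm38, in the 5' UTR of Amd1-201. It had 6 codons before its stop, with start and stop codons in capitals below.
Amd1 upstream frame: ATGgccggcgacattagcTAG
This was the 1 upstream ATG in the 328-base 5' UTR of Amd1. Odc1 had 2 upstream ATGs in a 489-base 5' UTR, Azin1 had 3 in 590 bases, Sms 4 in 334 bases and Sat1 2 in 281 bases. The other 5 members had none. Of 11483 tested genes with a protein-coding transcript of annotated start, 51.4% had at least 1 upstream ATG and the median 5' UTR length was 174 bases. Genes without a 5' UTR were not left out. A 5' UTR as long as that of Odc1 was found in 9.8% of them.

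RefSeq promoter windows (250 bases before to 50 after the start, GRCm38.p6) were found for 8 of the 10 members, with 10 windows in all. Azin1 and Srm had no entry. The part of the Odc1 window in front of the deposited gene model, chr12:17544623-17544793 on the plus strand (171 bases), is shown because Odc1 had the largest fold of the 10 members. Matches to the GC box, GGGCGG on either strand, are in capitals.
Odc1 upstream: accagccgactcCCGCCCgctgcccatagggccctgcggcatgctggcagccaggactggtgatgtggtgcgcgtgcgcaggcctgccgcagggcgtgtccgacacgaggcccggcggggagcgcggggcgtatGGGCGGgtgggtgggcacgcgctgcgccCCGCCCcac
The whole Odc1 window was 78.0% G and C, against a median of 52.7% over all windows, and held 4 GC boxes. GC boxes were in a window of 7 of the 8 members with windows, among them Smox with 6, against 35.7% of all 32851 windows. These figures are not alike, as a member counted if any of its windows matched. The share is per window and was not limited to genes tested here. The E-box CACGTG, a binding motif of MYC and MAX, was in 7.2% of all windows and in 1 of the 2 Sms windows, and not in that of Odc1. The windows end 50 bases after the start, so the rest of each gene, introns included, was not searched for it. On either strand, TATAAA (13.6% of windows) and CCAAT (37.4%) were each in the window of Oaz1, and CCAAT was also in that Sms window. The AP-1 motif TGANTCA (7.8%) and the CRE motif TGACGTCA (1.8%) were in none of the 10 windows. None of the 6 motifs searched contains another, and the matches only describe the letters in these windows.

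Nop16 itself had 388, 437 and 402 counts in the control libraries and 61, 72 and 84 after its siRNA, at 22.4% of the control level. Total counts were 19778237 to 23061922 in controls and 15601477 to 18635089 after Nop16 siRNA, so 3 counts were worth 0.129 to 0.194 CPM (counts relative to a library total scaled by TMM). All 7 macrophage markers were detected at 1 CPM or more, and their summed level was 4120 to 4370 CPM in controls and 6750 to 7140 CPM after Nop16 siRNA. Most of that difference was Lyz2, at 1144 ± 153 and 2934 ± 185 CPM (SD, n = 3). The list did not move as one: Fcgr1 was lower, at 50.33 and 39.18 CPM, and Adgre1 stood at 7.807 and 7.862 CPM. Markers of epithelial, T and B cells were below 1 CPM throughout (12 genes). In fibroblasts 1 of 4 markers, Pdgfra, and in neutrophils 1 of 5, S100a8, averaged near 1 CPM, with summed levels of 1.23 to 1.63 and 1.05 to 1.81 CPM in controls and 1.21 to 1.42 and 0.633 to 1.42 CPM after Nop16 siRNA. The part of the macrophage marker level in the results was not tested, and in bulk RNA a change in the share of cells and in RNA per cell cannot be told apart.

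Odc1 was about 5 times as abundant after Nop16 siRNA, 4 members were 1.13 to 1.57 times their control level, Amd1 was lower, and the other 4 overlapped between groups. Of the 10 members, 5 were past an adjusted p of 0.05 upward (Odc1, Oaz2, Azin1, Sat1 and Smox) and 1 downward (Amd1). Over all genes tested, 45.4% were past it, 23.0% higher and 22.4% lower, in edgeR's quasi-likelihood test with Benjamini-Hochberg adjustment. The groups were fully separated for 6 of 10 members and for 52.5% of all genes. The median log2 fold change was 0.13 over the members and -0.000 over all genes.

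**Figure D1:**
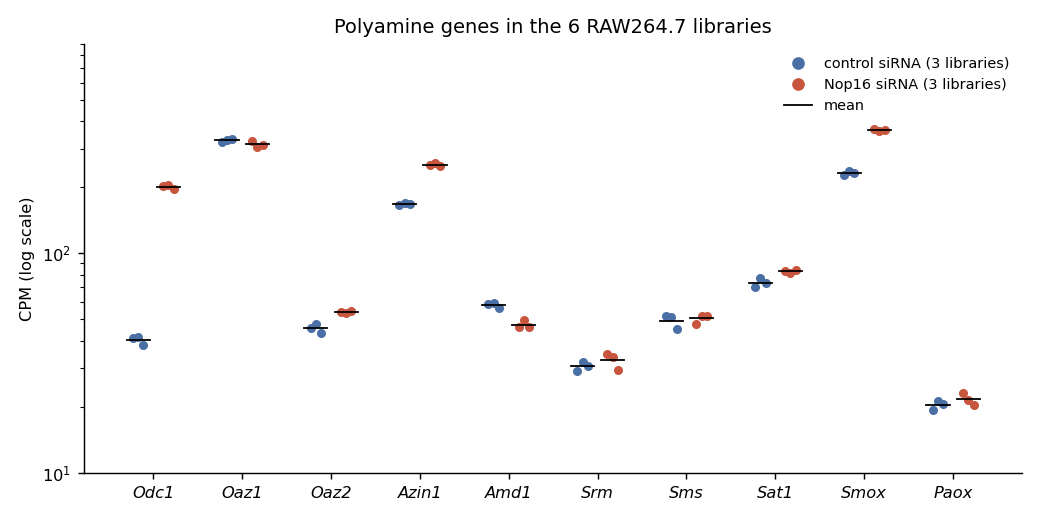
CPM on a log axis for each of the 10 polyamine genes in 3 control siRNA (blue) and 3 Nop16 siRNA (red) libraries, with a line at each mean. Odc1 moves from about 40.31 to 200.6 CPM, while Oaz1, Srm, Sms and Paox overlap between the groups.

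Odc1 (ENSMUSG00000011179, chr12:17544794-17551505, plus strand), the enzyme that commits ornithine to polyamines, was counted 900, 966 and 763 times in the controls and 3125, 3548 and 3604 times after Nop16 siRNA. That was 41.03, 41.56 and 38.34 CPM against 201.9, 204.3 and 195.7 CPM. Each group stayed within a narrow band and the bands were far apart. The means were 40.31 ± 1.73 and 200.6 ± 4.43 CPM (SD, n = 3), a log2 fold change of 2.31 (SE 0.0427) or 4.97-fold. Over all 10 members the lowest count in a library was 359, in Paox.

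**Figure D2:**
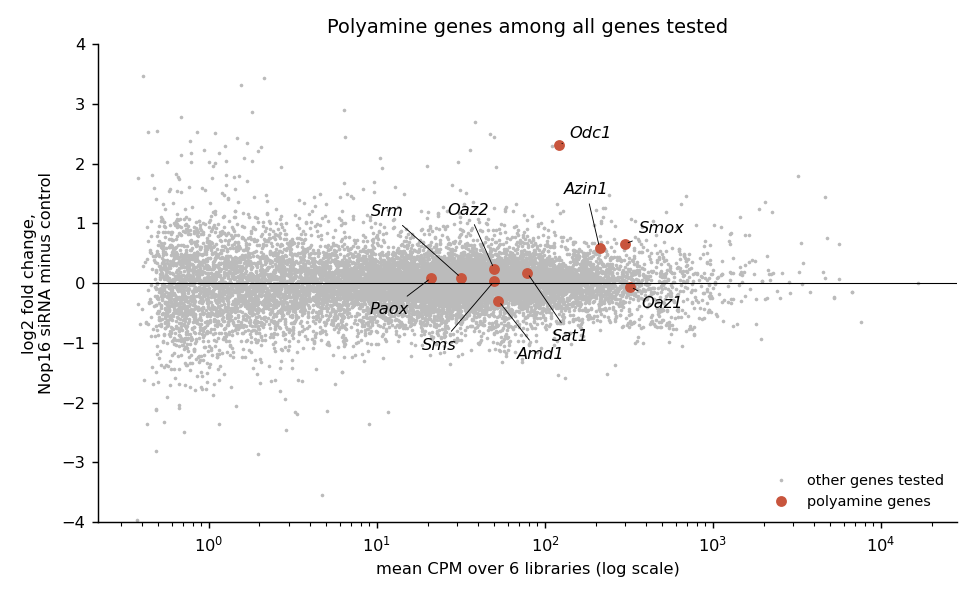
Log2 fold change (Nop16 siRNA minus control) against mean CPM over 6 libraries on a log axis, for all genes tested (grey) and the 10 polyamine genes (red). Odc1 stands at 2.31, Smox and Azin1 at 0.65 and 0.59 and Amd1 at -0.30, and 1 gene lies beyond the axis limit of 4.

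Of the antizymes, Oaz1 (ENSMUSG00000035242, chr10:80826656-80829290, plus strand) was the more abundant and overlapped between groups. It stood at 321.6, 328.9 and 332.2 CPM in controls and 324.4, 305.8 and 313.1 CPM after Nop16 siRNA, with means of 327.6 ± 5.41 and 314.4 ± 9.39 CPM (SD, n = 3). Its log2 fold change was -0.06 (SE 0.0309). The Oaz1 model shares 74 bases, 2.9% of its exonic length, with Mir1982 on the same strand.

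Oaz2 (ENSMUSG00000040652, chr9:65668001-65690300, plus strand), a less abundant antizyme, stood at 45.91, 47.79 and 43.31 CPM in controls and 53.82, 53.26 and 54.52 CPM after Nop16 siRNA. Every Nop16 siRNA library was above every control. The means were 45.67 ± 2.25 and 53.87 ± 0.633 CPM (SD, n = 3), 1.18-fold, with a log2 fold change of 0.24 (SE 0.0561). Azin1 (ENSMUSG00000037458, chr15:38487427-38519266, minus strand), the antizyme inhibitor, stood at 167.0, 170.6 and 168.8 CPM in controls and 251.7, 259.4 and 250.3 CPM after Nop16 siRNA. Here too the groups were fully apart. The means were 168.8 ± 1.79 and 253.8 ± 4.90 CPM (SD, n = 3), 1.5-fold, with a log2 fold change of 0.59 (SE 0.0332).

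Because antizyme binds both ornithine decarboxylase and its inhibitor, their messages were set against that of the antizymes within each library, as TPM (counts per length of gene model, scaled to the same sum in every library). Odc1 was 0.0854, 0.0844 and 0.078 of the sum of Oaz1 and Oaz2 in controls and 0.409, 0.437 and 0.409 after Nop16 siRNA. The ratio thus went from 0.0826 ± 0.004 to 0.418 ± 0.016 (SD, n = 3), 5.06-fold. For Azin1 the ratio was 0.188 ± 0.0012 and 0.288 ± 0.012, 1.53-fold. Odc1 and Azin1 together were 0.271 ± 0.0052 and 0.706 ± 0.028 of the antizymes, so antizyme message exceeded their sum in all 6 libraries. The level depends on the setting: it was 0.156 ± 0.0035 and 0.433 ± 0.017 with the length of the main messenger RNA. With the counts of near-identical gene copies added, it was 0.302 ± 0.0059 and 0.862 ± 0.033. These are ratios of messages, not of proteins.

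**Figure D3:**
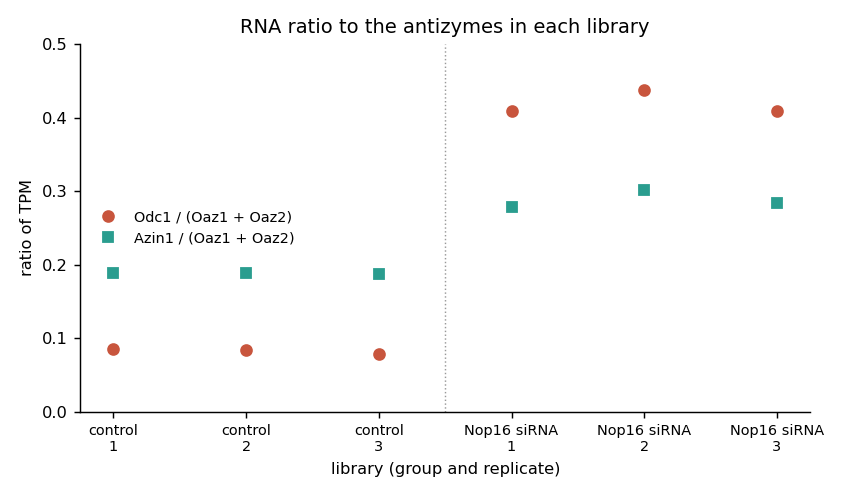
TPM of Odc1 (circles) and Azin1 (squares) divided by the summed TPM of Oaz1 and Oaz2 in each of the 6 libraries. Azin1 is above Odc1 in the 3 control libraries and below it in the 3 Nop16 siRNA libraries.

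Amd1, the other decarboxylase of the pathway (ENSMUSG00000075232, chr10:40287458-40302188, minus strand), was the 1 member with every Nop16 siRNA library below every control. It stood at 58.95, 59.67 and 56.37 CPM in controls and 46.20, 49.86 and 46.27 CPM after Nop16 siRNA. The means were 58.33 ± 1.73 and 47.44 ± 2.10 CPM (SD, n = 3), 81.3% of control, with a log2 fold change of -0.30 (SE 0.0549). Odc1 and Amd1, which supply the 2 substrates of spermidine synthase, thus stood on opposite sides of their control levels.

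The 2 synthases overlapped between groups. Srm, spermidine synthase (ENSMUSG00000006442, chr4:148591503-148594993, plus strand), stood at 29.27, 32.05 and 30.80 CPM in controls and 34.83, 33.80 and 29.49 CPM after Nop16 siRNA, with a log2 fold change of 0.09 (SE 0.0727). Sms, spermine synthase (ENSMUSG00000071708, chrX:157443855-157492287, minus strand), stood at 51.79, 51.19 and 45.12 CPM in controls and 47.81, 51.76 and 52.08 CPM after Nop16 siRNA, with a log2 fold change of 0.03 (SE 0.0583). In Sms the lowest value was that of control replicate 3, and without that library the sign turned, to -0.03.

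Of the breakdown enzymes, Smox, spermine oxidase (ENSMUSG00000027333, chr2:131491496-131525922, plus strand), showed the second largest fold of the 10 members. It stood at 227.8, 236.4 and 232.8 CPM in controls and 370.5, 360.4 and 364.3 CPM after Nop16 siRNA, with the groups far apart. The means were 232.3 ± 4.31 and 365.1 ± 5.11 CPM (SD, n = 3), 1.57-fold, with a log2 fold change of 0.65 (SE 0.0309). Sat1, which acetylates spermidine and spermine (ENSMUSG00000025283, chrX:155213132-155216449, minus strand), stood at 70.02, 77.22 and 73.61 CPM in controls and 82.83, 81.64 and 84.33 CPM after Nop16 siRNA. Its groups were apart by less than Smox, with a log2 fold change of 0.17 (SE 0.0470) or 1.13-fold. Paox, which oxidises the acetylated forms (ENSMUSG00000025464, chr7:140115799-140137224, plus strand), was the member with the fewest counts. It stood at 19.33, 21.34 and 20.55 CPM in controls and 23.20, 21.59 and 20.36 CPM after Nop16 siRNA, with a log2 fold change of 0.09 (SE 0.0834), and its groups overlapped.

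Per length of gene model, the order in controls was Oaz1 at 260 ± 5.71 TPM, Smox at 121 ± 3.04, Azin1 at 54.7 ± 0.94, Sat1 at 53.8 ± 2.98, Srm at 38.9 ± 2.02, Amd1 at 33.4 ± 1.03, Oaz2 at 31.0 ± 1.6, Odc1 at 24.0 ± 1.04, Sms at 16.6 ± 1.22 and Paox at 8.43 ± 0.473 TPM (SD, n = 3). Azin1 and Sat1 overlapped between libraries, as did Amd1 and Oaz2, and the other neighbours in that order did not. After Nop16 siRNA, Odc1 stood at 123 ± 3.64 TPM and had moved from rank 8 to rank 3, behind Oaz1 at 257 ± 6.58 and Smox at 196 ± 2.17. Below it came Azin1 at 84.7 ± 2.34, Sat1 at 62.4 ± 0.55, Srm at 42.7 ± 3.9, Oaz2 at 37.6 ± 0.176, Amd1 at 28.0 ± 1.47, Sms at 17.6 ± 0.865 and Paox at 9.24 ± 0.62 TPM, and no neighbours in this order overlapped. With the length of the main messenger RNA in place of the gene model, Sat1 stood above Azin1 and Oaz2 above Srm in both groups, and Odc1 and Amd1 were level in controls at 18.4 ± 0.798 and 18.3 ± 0.556 CPM per kilobase.

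The authors' counting let a fragment count at each place it aligned, so near-identical copies of a member can share its fragments. How many they shared was not tested. At 90% identity over at least 50% of the best-covered transcript of the copy, Odc1 had 14 copies, Amd1 8, Sms 7, Paox 4, Oaz2, Srm and Sat1 2 each and Oaz1 1, while Azin1 and Smox had none. These are counts of gene identifiers that met that threshold. They include Rps7-ps2 for Odc1, the processed transcript Snhg14 for Paox and Gm7270 under more than 1 identifier for Sms. Of the 14 Odc1 copies, 4 averaged at least 1 CPM. The processed pseudogene Gm7993 on chromosome 5 (95.3% identical) had 301, 403 and 308 counts in controls and 1292, 1511 and 1508 after Nop16 siRNA. Its log2 fold change was 2.44 (SE 0.0654), and its count was 0.334 to 0.426 of that of Odc1 in every library. The pseudogenes Gm17709 (98.1% identical, 0.5482 ± 0.0965 and 2.834 ± 0.411 CPM) and Gm9115 (96.7%, 0.453 ± 0.204 and 2.492 ± 0.432 CPM) had log2 fold changes of 2.35 (SE 0.323) and 2.43 (SE 0.35). AW146154, a gene annotated as protein-coding, has a transcript that is 94.9% identical to Odc1 over 79.1% of that transcript. The gene stood at 7.078 ± 0.551 and 7.513 ± 0.385 CPM (SD, n = 3) and overlapped between groups. With the counts of all copies added, AW146154 among them, the log2 fold change of Odc1 was 2.21. Of the 4 copies at 1 CPM or more, only AW146154, at 0.08, had a log2 fold change below the 2.31 of Odc1 alone. A sum without AW146154 was not made.

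**Figure D4:**
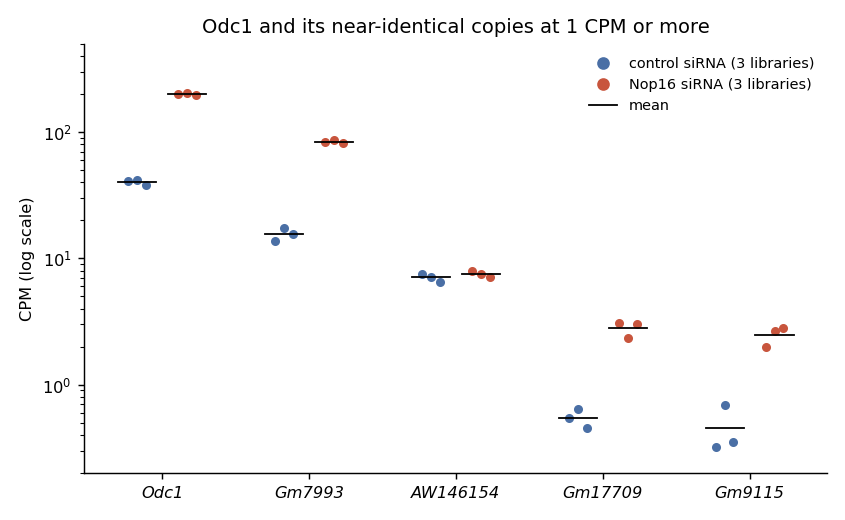
CPM on a log axis for Odc1 and its 4 near-identical copies at 1 CPM or more in 3 control siRNA (blue) and 3 Nop16 siRNA (red) libraries, with a line at each mean. Gm7993, Gm17709 and Gm9115 are separated between the groups as Odc1 is, and AW146154 is not.

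Among the copies of the other members at 1 CPM or more, Amd2, annotated as protein-coding and 99.6% identical to Amd1, stood at 17.59 ± 0.804 and 15.57 ± 0.348 CPM (SD, n = 3), with a log2 fold change of -0.18 (SE 0.0895) and separated groups. The Amd1 pseudogenes Amd-ps4 (4.059 and 4.198 CPM) and Amd-ps3 (3.587 and 3.428 CPM) overlapped between groups, and with all copies added Amd1 had a log2 fold change of -0.24. Oaz1-ps (19.59 and 19.03 CPM), Oaz2-ps (1.832 and 1.656 CPM), Sms-ps (14.53 and 14.59 CPM) and Gm19680, a copy of Paox (5.063 and 5.088 CPM), overlapped between groups like Oaz1, Sms and Paox and unlike Oaz2.

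The 5 genes whose 6 log2 CPM values, relative to the control mean, lay nearest to those of Odc1 were sought by Euclidean distance among 10791 genes averaging at least 5 CPM. They were Ms4a7, a membrane protein of macrophages (distance 0.187), the keratin gene Krt23 (0.251), the Odc1 copy Gm7993 (0.325), the chemokine gene Ccl7 (0.362) and the C-type lectin receptor gene Clec4n (0.403). Ms4a7 was also close to Odc1 in CPM, at 37.01 ± 3.77 in controls and 182.4 ± 5.91 after Nop16 siRNA (SD, n = 3). With 2 groups of 3 libraries, such a match mostly says that the fold is alike.

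The wider pathway was followed in 7 lists of 62 genes, of which 40 were tested. The lists, like the members, were chosen with earlier results of these data known, so their counts and adjusted p-values are a description only. Among those 40, 21 were higher, 5 lower and 14 not past the threshold, and the median log2 fold change was 0.14. Adjusted p-values are from edgeR's quasi-likelihood test over all genes tested, where 23.0% of genes were higher and 22.4% lower. Of the genes named below, Mat2b, Mtr, Dhps, Dohh and Mlx missed the threshold with DESeq2 (adjusted p 0.0545 to 0.104), Slc3a2 with library size only (0.101) and Enoph1 with thinning to equal depth (0.0589). These were not the only such settings. Mat2b, Dohh and Mlx also missed it with upper quartile scaling, library size only, no filter and protein-coding genes only (0.0528 to 0.0992). Mtr also missed it with library size only and no filter, as Slc3a2 did with no filter and thinning. Dohh and Mlx missed it with limma-voom (0.0509 and 0.0529) and robust dispersion off, Dohh and Dhps with thinning, and Mlx with the replicate block.

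The list of ornithine and arginine supply also held genes with other roles, among them Nos2, Azin2 and Pycr1. Of its 11 tested genes (17 listed), 7 were higher and 1 lower, and the median log2 fold change was 0.18. Ass1, which makes the precursor of arginine from citrulline, rose from 72.21 ± 4.37 to 147.9 ± 3.82 CPM (SD, n = 3), a log2 fold change of 1.03 (SE 0.0426, adjusted p = 1.95e-29). Nos2, the inducible nitric oxide synthase, rose from 6.236 ± 0.574 to 10.66 ± 0.994 CPM (log2 fold change 0.78, adjusted p = 1.09e-06). Of the arginine transporters, Slc7a2 rose from 16.12 ± 0.842 to 22.68 ± 1.89 CPM (adjusted p = 2.95e-06). The more abundant Slc7a1, named after its values were seen, overlapped between groups at 157.9 ± 1.85 and 161.9 ± 4.54 CPM (adjusted p = 0.423). Azin2, a second antizyme inhibitor, rose from 28.52 ± 0.872 to 39.53 ± 1.37 CPM (adjusted p = 3.36e-08). Oat, Asl and Gatm rose by 0.15, 0.35 and 0.18 on the log2 scale and Pycr1, of proline synthesis, fell by 0.38 with overlapping groups (named after their values were seen). The arginases, the usual source of ornithine, were at or near 0, also named after their values were seen: Arg2 had no counts in any library and Arg1 averaged 0.1126 and 0.0181 CPM.

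In S-adenosylmethionine supply, which feeds Amd1, 3 of 6 tested genes were higher and 1 lower (8 listed, median 0.13). Ahcy, which clears the by-product of methylation reactions, fell from 104.0 ± 1.36 to 72.45 ± 4.02 CPM (SD, n = 3), a log2 fold change of -0.52 (SE 0.0453, adjusted p = 3.13e-15). Mtr, methionine synthase, and Mat2b, a subunit of the enzyme that makes S-adenosylmethionine, rose by 0.16 and 0.13 on the log2 scale. Both calls ended without some library. The adjusted p of Mtr was 0.0269, and 0.0784, 0.0853 and 0.153 without control replicates 1 and 2 and Nop16 siRNA replicate 1. That of Mat2b was 0.037 and, without any 1 library other than control replicate 1, 0.0563 to 0.113. The more abundant Mat2a of the same list, named after its values were seen, overlapped between groups at 198.9 ± 4.33 and 198.8 ± 4.47 CPM (adjusted p = 0.994).

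Methionine salvage, which recycles the methylthioadenosine that Srm and Sms release, had 3 of 5 genes higher, none lower and a median of 0.25. Mtap, its first enzyme, rose from 62.87 ± 1.88 to 75.34 ± 0.91 CPM (SD, n = 3, adjusted p = 7.81e-06), and Adi1 rose by 0.30 on the log2 scale (adjusted p = 0.00273). Enoph1 rose by 0.25 (adjusted p = 0.0181), or 0.0943 if control replicate 1 was left out and 0.0933 if Nop16 siRNA replicate 2 was. Of the 3 tested genes of hypusine, the spermidine-derived residue of the translation factor eIF5A, both modifying enzymes were called higher. Eif5a itself, named after its values were seen, was not past the threshold, at 512.1 ± 4.58 and 498.4 ± 6.51 CPM (log2 fold change -0.04, adjusted p = 0.275). Dhps had a log2 fold change of 0.23 (adjusted p = 0.0225) and Dohh of 0.17 (adjusted p = 0.0485), with overlapping groups in both. The Dhps call ended without control replicates 1 or 3 or Nop16 siRNA replicates 1 or 3 (adjusted p 0.0651 to 0.127). The Dohh call ended without control replicates 2 or 3 or Nop16 siRNA replicates 1 or 3 (0.0952 to 0.224), and 47.5% of its exonic length is shared with Gm48551 on the same strand.

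All 4 tested genes of polyamine transport (11 listed) were called, 3 higher and 1 lower. Atp13a4 had 7, 6 and 5 counts in controls and 25, 21 and 19 after Nop16 siRNA, a log2 fold change of 2.18 (SE 0.438, adjusted p = 3.17e-05) on few counts. Atp13a2, the lysosomal polyamine exporter, rose from 216.7 ± 12.4 to 248.9 ± 2.94 CPM (SD, n = 3, adjusted p = 2.11e-06), and its relative Atp13a3 fell by 0.18 on the log2 scale (adjusted p = 0.000344). Slc3a2 rose by 0.09 (adjusted p = 0.0234), or 0.199 if control replicate 1 was left out and 0.077 if Nop16 siRNA replicate 1 was. Neither tested gene of other polyamine breakdown and conjugation was past the threshold: Sat2 had an adjusted p of 0.264 and Aoc2 of 0.517.

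Odc1 is a textbook target of MYC, and of 9 tested genes of the Myc network (11 listed) 3 were higher and 2 lower, with a median of -0.05. Myc itself, named after its values were seen, stood at 9.172 ± 0.23 and 8.728 ± 1.48 CPM (SD, n = 3, log2 fold change -0.08, adjusted p = 0.65). Of the MAX partners that oppose MYC, Mxd3 fell from 10.10 ± 0.586 to 6.162 ± 0.907 CPM (log2 fold change -0.71, adjusted p = 8.94e-06), Mxi1 fell by 0.17 on the log2 scale (adjusted p = 0.000766) and Mxd1 rose by 0.38 (adjusted p = 0.000105). Max rose by 0.22 (adjusted p = 0.00241), with 0.0661 without control replicate 1. Mlx, named after its values were seen, had an adjusted p of 0.0481, and its call ended without any 1 of control replicates 2 and 3 and Nop16 siRNA replicates 2 and 3 (0.13 to 0.239).

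**Figure D5:**
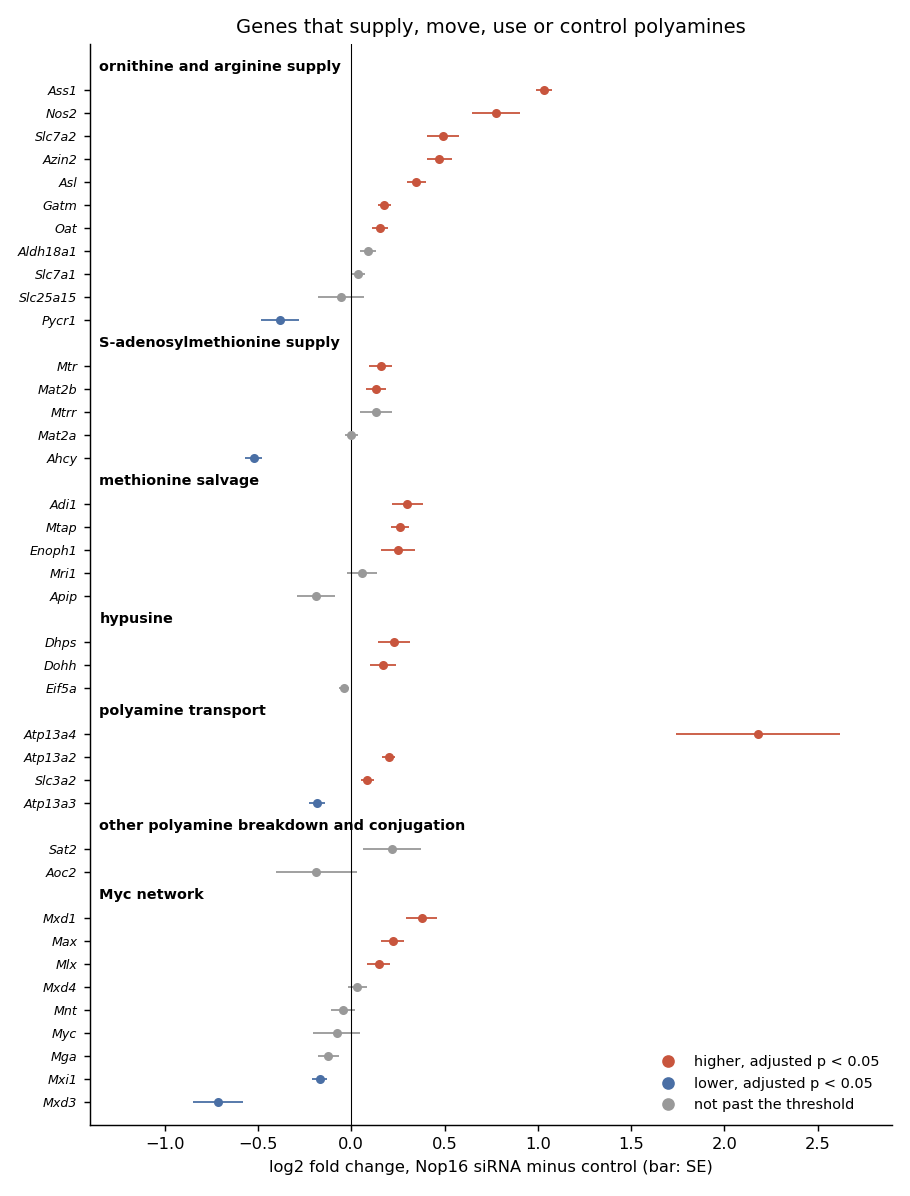
Log2 fold change (Nop16 siRNA minus control, bar: SE) of 39 of the 40 tested genes in 7 lists around the polyamine pathway, in red for higher, blue for lower and grey for not past an adjusted p of 0.05. Ass1 and Atp13a4 lie furthest to the right at 1.03 and 2.18, and Mxd3 and Ahcy furthest to the left at -0.71 and -0.52.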

How the data were processed

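The authors deposited raw counts of fragments per gene, made with featureCounts 2.0.1 on Ensembl release 101 gene models of GRCm38, per the file headers (strand setting 2, proper pairs, minimum overlap 10 bases, fragments that align to several places or overlap several genes counted for each). The submitters' processing notes list Trim Galore, without its version, and HISAT2 2.2.1. Each fragment can thus count for more than 1 gene, and the floor of 3 counts covers counting error only. The deposited gene lengths were used for TPM; other lengths and symbols (55141 identifiers matched) came from GENCODE mouse release 21.

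Counts of all 6 libraries were fitted with edgeR 4.0.16 (R 4.3.3; TMM, filterByExpr, robust quasi-likelihood test, Benjamini-Hochberg adjustment, threshold 0.05). CPM were scaled by TMM, and the SE was taken as the size of a log2 fold change over the square root of its F statistic. Copies were found with BLAST 2.17.0. Alternatives used other scalings, DESeq2 1.42.0, limma 3.58.1 (voom), other filters, copies summed and each library left out. The script was tested on simulated data in which far fewer genes changed than were called here. That test does not give its error rate in these data.

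The members and lists were chosen with earlier results of these data known. Named genes were the members, Nop16, copies averaging at least 1 CPM, the 5 nearest profiles, and from each list up to 4 genes past the threshold by size of change, or up to 2 of the most abundant where fewer than 2 passed. Replicate numbers showed no sign of pairing: same-numbered libraries deviated together with correlations of 0.017, -0.02 and -0.022. These values cannot show whether the samples were paired by design. No pair of libraries agreed within sampling noise (chi-square per degree of freedom 2.51 to 3.14 within groups). In the lists, 1 gene is counted whose values are not reported here.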

Additional observations from a re-analysis of the deposited data

How the results depend on the processing

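Over 18 alternatives, the log2 fold change of Odc1 ran from 2.21, with the counts of all copies summed, to 2.34. Smox ran from 0.63 to 0.67, Azin1 from 0.57 to 0.60, Oaz2 from 0.20 to 0.27, Sat1 from 0.14 to 0.21 and Amd1 from -0.34 to -0.24. Of the members, which were chosen on this comparison, 5 were called higher in every setting. Of the 14269 genes tested in the main fit, 23.0% were called higher and 22.4% lower. The number of members lower was 1, or 2 with library size only and 2 with protein-coding genes only. Without 1 library it ran from 1 to 2. The second was Oaz1 each time, and the left-out library was Nop16 siRNA replicate 1. These counts of calls are no sign of stability. Without 1 library, Odc1 ran from 2.28 to 2.34, its ratio to the antizymes from 4.93 to 5.15-fold, the wider lists from 15 to 18 higher and from 5 to 6 lower, and all genes from 2918 to 3039 higher and from 2899 to 3010 lower. With copies summed, AW146154 among those of Odc1, the ratio was 4.73-fold. Signs turned in values near 0. With library size only, Gm19680 and Sms-ps were each -0.013, and with thinning to equal depth AW146154, Amd-ps4 and Sms-ps were -0.003, -0.015 and -0.012. With 1 library left out, Sms ran from -0.025 to 0.072, Amd-ps4 from -0.017 to 0.124, Amd-ps3 from -0.139 to 0.057, Oaz1-ps from -0.1 to 0.024, Oaz2-ps from -0.307 to 0.162, Gm19680 from -0.081 to 0.091 and Sms-ps from -0.067 to 0.087. The cause was not tested. With the replicate number as a block, Odc1 stood at 2.32, with 5 members higher and 1 lower. In that setting 20 and 5 genes of the wider lists and 3241 and 3188 of all genes were higher and lower. The labels do not say whether the numbers pair the libraries. The median of all genes moved by no more than 0.023 under any scaling. Depth limits Atp13a4, Gm17709 and Gm9115, which had few counts in controls.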
